A study of Mus musculus with 21 samples.

Results

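The Dlk1-Dio3 imprinted locus of the mouse was followed through 6 of its genes: the noncoding RNAs Meg3, Rian and Mirg, and the coding genes Dlk1, Rtl1 and Dio3. They were taken by symbol from the 23827 rows of the deposited gene tables, and each symbol had 1 row. In the GRCm38 annotation (GENCODE vM21) they lie on chromosome 12 over 828.3 kb. Dlk1 (chr12:109452823-109463336) comes first, followed by Meg3 (chr12:109541001-109571726), Rian (chr12:109603940-109661716), Mirg (chr12:109729764-109749460) and Dio3 (chr12:110279068-110281097), all on the plus strand. Rtl1 (chr12:109589193-109600330) lies between Meg3 and Rian on the minus strand.

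In this cluster the coding genes Dlk1, Rtl1 and Dio3 are expressed from the chromosome inherited from the father, and the noncoding RNAs Meg3, Rian and Mirg from the chromosome inherited from the mother. Dlk1 encodes a transmembrane protein of the Notch ligand family that restrains differentiation. Rtl1 encodes a retrotransposon-derived protein needed in the placental vessels, and Dio3 encodes the deiodinase that inactivates thyroid hormone. Meg3 is a long noncoding RNA kept largely in the nucleus, while Rian and Mirg are host transcripts of small nucleolar RNAs and microRNAs. The reads were not separated by parental chromosome, so the values are sums over both.

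Total RNA (the transcriptome) and RNA bound to tagged ribosomes (the translatome) were compared in E14.5 mouse embryos in 21 libraries, 3 in each of 7 groups. The brain transcriptome, brain translatome, kidney transcriptome and kidney translatome came from embryos that were Sox2Cre+/-;Gt(ROSA)26Sor-mCherry-Rpl10a+/-, in which Sox2Cre switches on the tag throughout the embryo. The brain EC and kidney EC translatomes came from Cdh5CreERT2+/-;Gt(ROSA)26Sor-mCherry-Rpl10a+/- embryos (EC, endothelial cells; the dams received tamoxifen), and the Emx1 translatome from Emx1Cre+/-;Gt(ROSA)26Sor-mCherry-Rpl10a+/- embryos, in which the tag follows the dorsal telencephalic lineage. All 7 groups thus carry the tagged ribosomal protein, which is driven by a CAGGS promoter from an allele made in 1 targeted embryonic stem cell clone, and there is no group without it. In the translatomes, RNA bound to tagged ribosomes and RNA carried over in the purification therefore cannot be told apart. The tissue of 1 or more embryos went into a library, and brain means the forebrain with a part of the diencephalon.

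Between 21760652 and 79231692 reads were counted per library. The labels held against the marker genes: all 10 endothelial markers were higher in both EC translatomes than in the translatome of their organ, and all 6 dorsal telencephalic markers were higher in the Emx1 translatome than in the brain translatome. Summed over the 8 neural markers, of which 1 was called higher in brain EC, 778 to 945 RPKM remained there, against 2315 to 2336 in the brain translatome. The 6 dorsal telencephalic markers kept 92.2 to 124 RPKM in brain EC, against 596 to 611. The 8 kidney epithelial and progenitor markers kept 69.6 to 90.7 RPKM in kidney EC, against 418 to 444 in the kidney translatome. The EC libraries were thus enriched rather than pure. RPKM is reads per kilobase of transcript, scaled to the library's reads on mRNAs. RPM is the same without the transcript length, over all counted reads. Changes are log2 fold changes from read counts with their standard error (SE), and a change was called at an adjusted p under 0.001 in edgeR's quasi-likelihood test over all rows with a read. In bulk tissue, fewer cells of a type and less RNA per cell cannot be told apart.

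The start sites of Dlk1, Meg3 and Dio3 are shown first, because most of the results turn on these 3 genes. The 250 bases before each RefSeq start site (GRCm38.p6) were searched on both strands for the motifs of promoters. The letters of the TATA box were TATAAA. Those of the cAMP response element were TGACGTCA. The box bound by factor NF-Y was read as CCAAT. For the GC box the letters were GGGCGG. The capitals mark the matches, which overlap within Meg3. The Dlk1 window ends before the start at chr12:109452823, and the RefSeq gene span, which begins at chr12:109452485, has a start upstream of the window. The Dio3 window ends before the RefSeq start at chr12:110279230, and the GENCODE start given above lies inside it.
Dlk1, chr12:109452573-109452822, plus strand: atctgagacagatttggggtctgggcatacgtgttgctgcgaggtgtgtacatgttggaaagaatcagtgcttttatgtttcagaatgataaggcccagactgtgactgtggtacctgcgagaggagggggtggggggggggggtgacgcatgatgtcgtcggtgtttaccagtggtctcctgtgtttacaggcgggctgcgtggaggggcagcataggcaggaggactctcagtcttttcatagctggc
Meg3, chr12:109540746-109540995, plus strand: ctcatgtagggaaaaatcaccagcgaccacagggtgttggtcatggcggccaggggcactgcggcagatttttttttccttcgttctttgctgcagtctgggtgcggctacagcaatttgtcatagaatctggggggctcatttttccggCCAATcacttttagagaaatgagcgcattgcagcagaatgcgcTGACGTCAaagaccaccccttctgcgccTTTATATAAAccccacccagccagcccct
Dio3, chr12:110278980-110279229, plus strand: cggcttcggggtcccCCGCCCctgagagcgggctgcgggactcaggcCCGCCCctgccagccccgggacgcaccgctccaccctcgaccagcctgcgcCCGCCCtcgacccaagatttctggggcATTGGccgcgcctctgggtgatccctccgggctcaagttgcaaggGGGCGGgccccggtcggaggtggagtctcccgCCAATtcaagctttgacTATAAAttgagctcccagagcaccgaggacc
The Meg3 window held TATAAA on both strands in 1 overlapping stretch from -29 to -20, TGACGTCA from -57 to -50 and CCAAT from -100 to -96. The Dio3 window held TATAAA from -31 to -26, CCAAT at 2 positions and GGGCGG at 4, and these letters were not in the Dlk1 window. Of the 32851 RefSeq windows of the same length, 12.4% held TATAAA, 1.55% TGACGTCA, 33.8% CCAAT and 32.7% GGGCGG.

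The comparison of translatome with transcriptome asks which transcripts of an organ are purified with ribosomes. In brain the 3 noncoding members fell together and Rtl1 fell with them, while Dlk1 and Dio3 did not fall. Of the 6 members, 4 were called lower and 0 higher, beside 18.5% of all 19446 rows tested called lower and 18.6% called higher, and the members' median log2 fold change was -2.62 against -0.01 over all rows.

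Meg3 had 271, 255 and 274 RPKM in the brain transcriptome libraries and 2.44, 2.89 and 2.74 RPKM in the brain translatome libraries. Its lowest transcriptome library thus stood far above its highest translatome library, and its reads fell by 6.47 on the log2 scale (SE 0.08, adjusted p = 4.4e-15), or 88.5-fold. Mirg had 10.1, 11.5 and 12.1 RPKM in the transcriptome and 0.290, 0.326 and 0.322 RPKM in the translatome. On 522 to 784 reads per transcriptome library and 12 to 16 per translatome library, Mirg fell by 5.14 (SE 0.16, adjusted p = 1.8e-11), with no overlap between the groups.

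Rian fell least of the noncoding members, from 77.2, 61.3 and 61.0 RPKM to 8.64, 4.99 and 5.69 RPKM, again without overlap. Its log2 fold change was -3.32 (SE 0.16, adjusted p = 6.7e-10), a 10.0-fold difference. The order of the noncoding members therefore turned: Rian stood below Meg3 in the brain transcriptome, with a log2 ratio of their RPKM between -2.17 and -1.81, and above it in the brain translatome, with a ratio between 0.79 and 1.82.

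Among the coding members, Rtl1 was read at 0.577, 0.775 and 0.828 RPKM in the brain transcriptome and at 0.143, 0.242 and 0.193 RPKM in the translatome. Its log2 fold change of -1.92 (SE 0.22, adjusted p = 4.3e-06) rested on 87 to 154 reads per transcriptome library and 21 to 26 per translatome library. The library kit does not mark the strand, so reads of Rtl1 and of the maternally expressed antisense transcript that carries microRNAs cannot be told apart. With the sequencing lane as a covariate the call of Rtl1 ended (log2 fold change -1.60, adjusted p = 1.9e-03).

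Dlk1 had 19.3, 27.2 and 26.5 RPKM in the brain transcriptome and 23.3, 29.8 and 28.7 RPKM in the translatome. These groups overlapped, and the log2 fold change was 0.22 (SE 0.11, adjusted p = 0.11, 95% confidence interval -0.02 to 0.46). Dio3 had 2.41, 2.71 and 2.66 RPKM in the transcriptome and 3.40, 3.08 and 3.86 RPKM in the translatome, without overlap, and its log2 fold change of 0.44 (SE 0.12, adjusted p = 6.3e-03) missed the threshold. Libraries with the same number came from the same tissue sample, and with that number as a block both were called higher, Dlk1 at an adjusted p of 3.8e-04 and Dio3 at 2.9e-04, beside 23.1% of all rows called higher and 22.8% called lower in that fit.

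**Figure D1:**
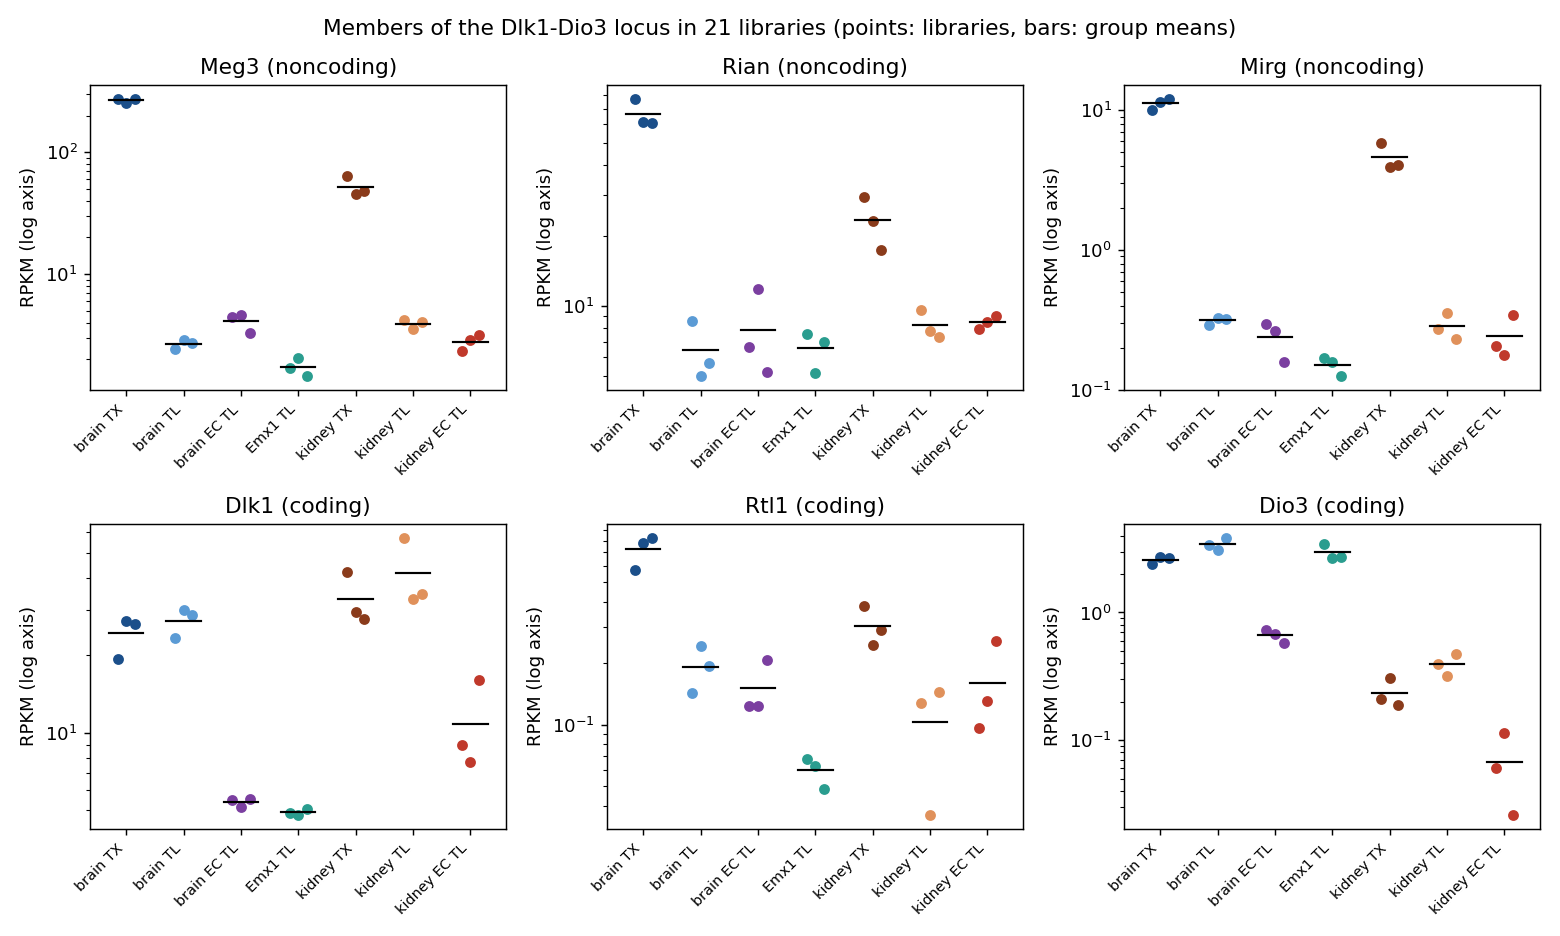
RPKM of the 6 members in each of the 21 libraries on log axes, 1 panel per gene (TX, transcriptome; TL, translatome; points, libraries; bars, group means). Meg3, Rian and Mirg are highest in the brain transcriptome, second in the kidney transcriptome and lower in all 5 translatome groups, whereas Dlk1 is highest in the kidney translatome and Dio3 in the brain translatome.

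In kidney the noncoding members fell as well. Of the 6 members, 3 were called lower and 0 higher, beside 15.8% and 14.9% of all 19336 rows. Meg3 had 63.3, 45.6 and 47.6 RPKM in the kidney transcriptome and 4.17, 3.56 and 4.07 RPKM in the translatome, and its reads changed by -3.57 on the log2 scale (SE 0.13, adjusted p = 3.2e-08). Mirg fell from 5.81, 3.94 and 4.05 RPKM to 0.272, 0.352 and 0.230 RPKM, by 4.00 on the log2 scale (SE 0.26, adjusted p = 5.8e-07). Rian had 29.3, 23.1 and 17.3 RPKM against 9.58, 7.80 and 7.32 RPKM, a log2 fold change of -1.50 (SE 0.17, adjusted p = 3.1e-05). Each of the 3 noncoding members had every transcriptome library above every translatome library.

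None of the coding members was called in kidney. Dlk1 had 42.0, 29.4 and 27.7 RPKM in the transcriptome and 57.2, 33.1 and 34.7 RPKM in the translatome, overlapping groups with a log2 fold change of 0.33 (SE 0.21, adjusted p = 0.22). Replicate 1 was the highest Dlk1 library of both groups, and these 2 libraries came from the same tissue sample. Dio3 was low, with 11 to 23 reads in every one of the 6 libraries, and its log2 fold change was 0.73 (SE 0.31, adjusted p = 0.075). For Rtl1 there were 68, 35 and 32 reads in the transcriptome and 11, 3 and 11 reads in the translatome, with a log2 fold change of -1.58 (SE 0.40, adjusted p = 6.6e-03). With the tissue sample as a block Rtl1 was called lower (adjusted p = 2.2e-06) and Dlk1 higher (adjusted p = 3.5e-15), in a fit that set every row's dispersion to the trend and called 24% of all rows higher and 25.1% lower.

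The difference between the organs was tested as an interaction over the 12 Sox2Cre libraries. The fall from transcriptome to translatome was deeper in brain for Meg3, by 2.92 on the log2 scale (SE 0.16, adjusted p = 3.9e-08), and for Rian, by 1.84 (SE 0.28, adjusted p = 2.3e-04). These 2 members were called, beside 4.12% of all 20108 rows called in that direction and 2.35% in the other. For Mirg the difference was -1.15 (SE 0.38, adjusted p = 0.038), and for Dlk1, Rtl1 and Dio3 it lay between -0.34 and -0.13 with adjusted p values of 0.52 to 0.85. The difference in Rian missed the threshold with the sequencing lane as a covariate (log2 -1.89, adjusted p = 5.7e-03).

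The 3 coding genes on each side of the locus were compared with the members. On the Dlk1 side, Wars (a tryptophan tRNA ligase) stood at -0.19 (log2 fold change) in brain (SE 0.05, adjusted p = 2.3e-03), Wdr25 at 0.41 and Begain at 0.25, none of them called. On the Dio3 side, Ppp2r5c, a regulatory subunit of protein phosphatase 2A, had 0.18 and was not called. Dync1h1, the cytoplasmic dynein heavy chain, was called lower in brain, from 83.0 ± 4.7 to 34.4 ± 0.44 RPKM (SD, n = 3), with a log2 fold change of -1.24 (SE 0.06, adjusted p = 9.7e-10). Like Meg3 and Rian, Dync1h1 had a called difference between the organs (log2 -1.02, SE 0.09, adjusted p = 2.7e-06), and in kidney it was not called (-0.24, adjusted p = 8.7e-03). 1700001K19Rik had means under 1 RPKM in both brain fractions and was called neither in brain (-0.68, SE 0.67, adjusted p = 0.42) nor in kidney (-0.63, SE 0.86, adjusted p = 0.57). In kidney the flanking genes lay between -0.63 and 0.36, with Wars called lower and Ppp2r5c higher.

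**Figure D2:**
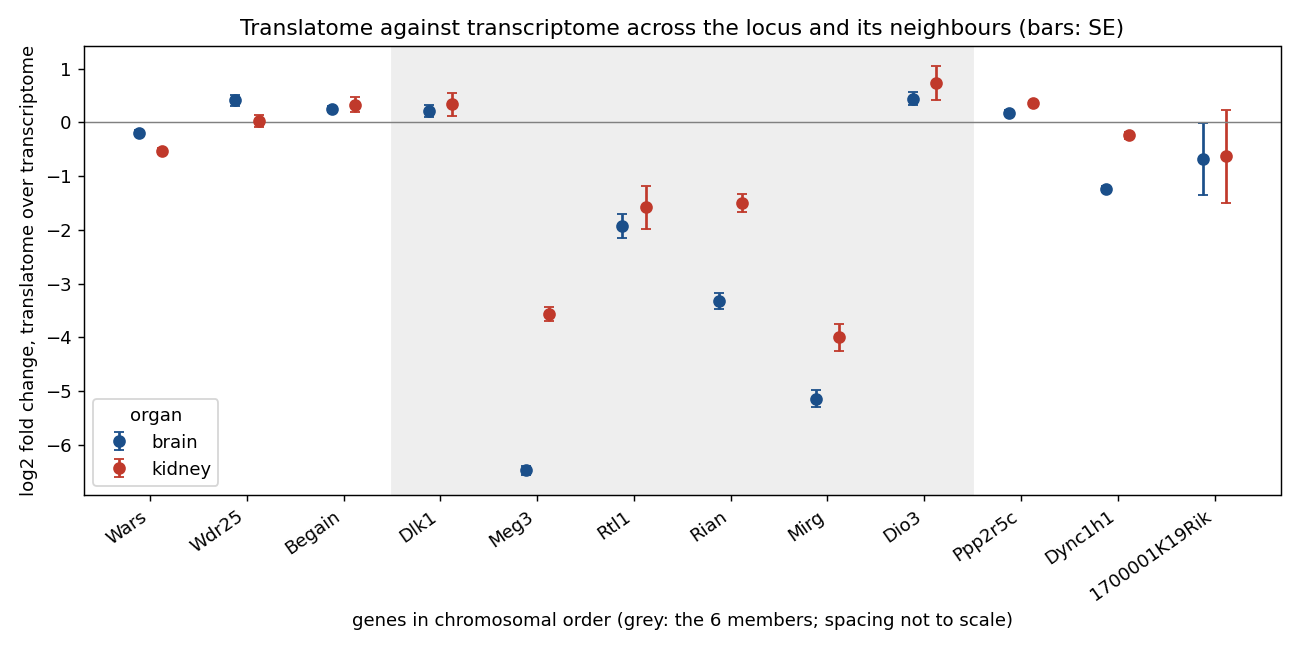
Log2 fold change from transcriptome to translatome in brain (blue) and kidney (red) for the 6 members (grey field) and the 3 nearest coding genes on each side, in chromosomal order; bars are the SE. Meg3 (-6.47 and -3.57), Mirg (-5.14 and -4.00) Rian (-3.32 and -1.50) and Rtl1 (-1.92 and -1.58) lie below 0, and Dlk1 and Dio3 lie above it.

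Among the 11 other long noncoding RNAs compared, 6 were called lower in the brain translatome and 1 higher, beside 18.5% and 18.6% of all rows, with a median of -2.45. In kidney 4 were lower and 2 higher, beside 15.8% and 14.9%, with a median of -0.88. H19, another imprinted noncoding RNA, had 118 ± 20 RPKM (SD, n = 3) in the brain transcriptome and 21.2 ± 4.2 RPKM in the translatome, and its log2 fold change was -2.45 (SE 0.14, adjusted p = 3.0e-09). Miat, a nuclear noncoding RNA of neurons, fell from 242 ± 19 to 4.20 ± 0.32 RPKM in brain, with a log2 fold change of -5.82 (SE 0.09, adjusted p = 2.4e-14). Peg13 was called higher in both organs (log2 fold change 0.70 and 0.92), and Tug1 in kidney (0.41) but not in brain (-0.02), with a called difference between the organs (adjusted p = 8.8e-04). Markers of red blood cells also fell in the translatome, 3 of the 5 tested in brain and 4 in kidney, with summed levels of 186 to 429 against 98.5 to 192 RPKM in brain. The part of these cells in the fall of the members was not tested.

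The share of reads shows the same pattern within each library. Meg3 took 80.0% to 82.2% of the reads of the 6 members in the brain transcriptome and 9.38% to 10.2% in the brain translatome, while Dlk1 went from 4.70% to 6.69% to between 66.9% and 77.1%. In kidney total RNA the share of Meg3 was 44.9% to 49.2%, and in the kidney translatome it was 5.97% to 8.88%. Summed RPKM of the noncoding members over that of the coding members was 12.6-fold in the brain transcriptome (mean of 3 log2 ratios, 3.65, SD 0.31) and 2.39-fold in the kidney transcriptome (log2 1.26, SD 0.05). In the translatomes of both organs the log2 ratio was -1.72 (SD 0.42 in brain and 0.28 in kidney), so that the coding members led there. The ratio in the brain translatome, between -2.01 and -1.24, overlapped that in the kidney translatome, between -2.04 and -1.52. The lineage translatomes stood between these extremes, with log2 ratios of 0.46 to 1.48 in brain EC, -0.03 to 0.17 in Emx1 and -0.37 to 0.55 in kidney EC.

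**Figure D3:**
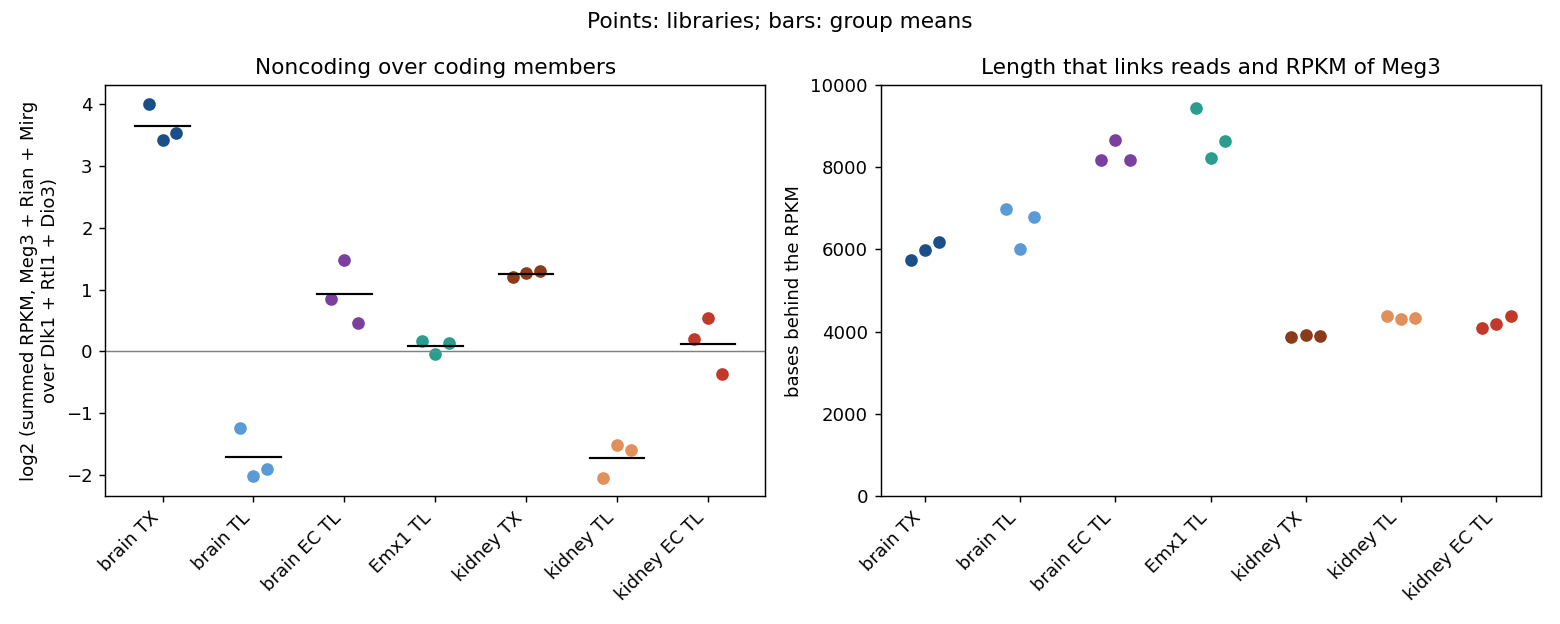
Left, log2 ratio of the summed RPKM of Meg3, Rian and Mirg over that of Dlk1, Rtl1 and Dio3 in each library (points) with group means (bars). Right, the number of bases that links reads and RPKM of Meg3 in each library; it reaches at most 4391 in the kidney groups and is at least 5744 in the brain groups.

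The Meg3 row sums reads over 4 RefSeq transcripts, and its RPKM and its reads did not move by the same factor. The length that links both values, computed from the deposited reads and RPKM, was 5744 to 6188 bases in the brain transcriptome, 6020 to 6987 in the brain translatome, 8166 to 8653 in brain EC and 8220 to 9429 in Emx1. In kidney it was 3880 to 3915 in the transcriptome, 4309 to 4391 in the translatome and 4089 to 4378 in kidney EC. The 3 of these transcripts that matched GENCODE are 1896, 1988 and 14548 bases long. The single-transcript rows Rian, Mirg, Rtl1 and Dio3 kept 1 length, the highest being 1.002 times the lowest, and Dlk1 varied by 1.10 times. Meg3 varied by 2.43 times, more than 99.8% of the 2554 rows that pool several accessions and have at least 100 reads in every library. Every group of brain libraries lay above every group of kidney libraries in this length, whatever the RNA fraction. Which Meg3 transcripts the reads came from is not given in the tables.

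The other rows of the locus are mostly small RNAs, microRNAs above all. The mature sequences (RefSeq, GRCm38.p6) of the microRNAs among the 10 other rows with most reads are printed with the seed, bases 2 to 8, in capitals.
miR-3072-5p, chr12:109747893-109747914, plus strand: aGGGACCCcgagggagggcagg
miR-3072-3p, chr12:109747928-109747949, plus strand: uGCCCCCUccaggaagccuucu
miR-377-5p, chr12:109740515-109740536, plus strand: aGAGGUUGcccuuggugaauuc
miR-377-3p, chr12:109740553-109740574, plus strand: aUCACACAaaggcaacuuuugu
miR-485-3p, chr12:109734946-109734967, plus strand: aGUCAUACacggcucuccucuc
miR-453, chr12:109735669-109735692, plus strand: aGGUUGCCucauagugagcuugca
miR-1247-5p, chr12:110278094-110278115, minus strand: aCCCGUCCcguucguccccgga
miR-1247-3p, chr12:110278058-110278078, minus strand: cGGGAACGucgagacuggagc
These 8 sequences have 8 different seeds. Across the locus, 113 mature microRNA names shared 104 seeds, and miR-453 shares its seed GGUUGCC with miR-496a-5p.

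The files hold 71 further rows between the outer ends of Dlk1 and Dio3, of which 61 are microRNAs, 7 are small nucleolar RNA-like and 3 are other transcripts. No library had a read in 30 of the 71. In the brain transcriptome the 61 microRNA rows had 198 reads in all, over 28 rows, and in the brain translatome 2 reads in 1 row. In kidney they had 52 reads in the transcriptome and 0 in the translatome. The 7 small nucleolar RNA-like rows went from 511 to 20 reads in brain and from 153 to 10 in kidney. Both small RNA classes together reached 3.77 to 5.49 RPM in the brain transcriptome and 0.196 to 0.226 RPM in the brain translatome, so the groups stood far apart.

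Of the 37 rows with a read in the 6 brain libraries, 3 were called lower in the translatome and 0 higher, beside 18.5% and 18.6% of all rows. In kidney 1 of 26 was called lower and 0 higher, beside 15.8% and 14.9%. AF357359, a small nucleolar RNA-like row inside Rian, had 89, 180 and 178 reads in the brain transcriptome and 8, 6 and 6 in the translatome, with a log2 fold change of -3.92 (SE 0.28, adjusted p = 3.3e-08). It was also the row called in kidney, with 42, 42 and 25 reads against 2, 2 and 5 (log2 fold change -2.74, SE 0.41, adjusted p = 2.1e-04), a call lost without kidney translatome replicate 1 or 2. Mir3072, inside Mirg, had 15, 18 and 17 reads in the brain transcriptome and 0 in the 6 whole-brain and whole-kidney translatome libraries (adjusted p = 4.6e-05 in brain). In the lineage translatomes it had 1 read, in brain EC. Dio3os, the antisense partner of Dio3, fell from 81, 112 and 108 reads to 38, 29 and 32 reads in brain (log2 fold change -1.07, SE 0.18, adjusted p = 1.2e-04), while Dio3 itself did not fall. Among the rows that were not called, DQ267102, DQ267100 and AF357426 inside Rian had 9 to 20 reads in the brain transcriptome and 0 in the brain translatome. Mir377, Mir485 and Mir453 inside Mirg had 13 to 25 reads there and 0 in the translatome, and Mir1247, next to Dio3, had 6 and 2. A read in these rows can come from the long precursor and is no measure of the mature microRNA.

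**Figure D4:**
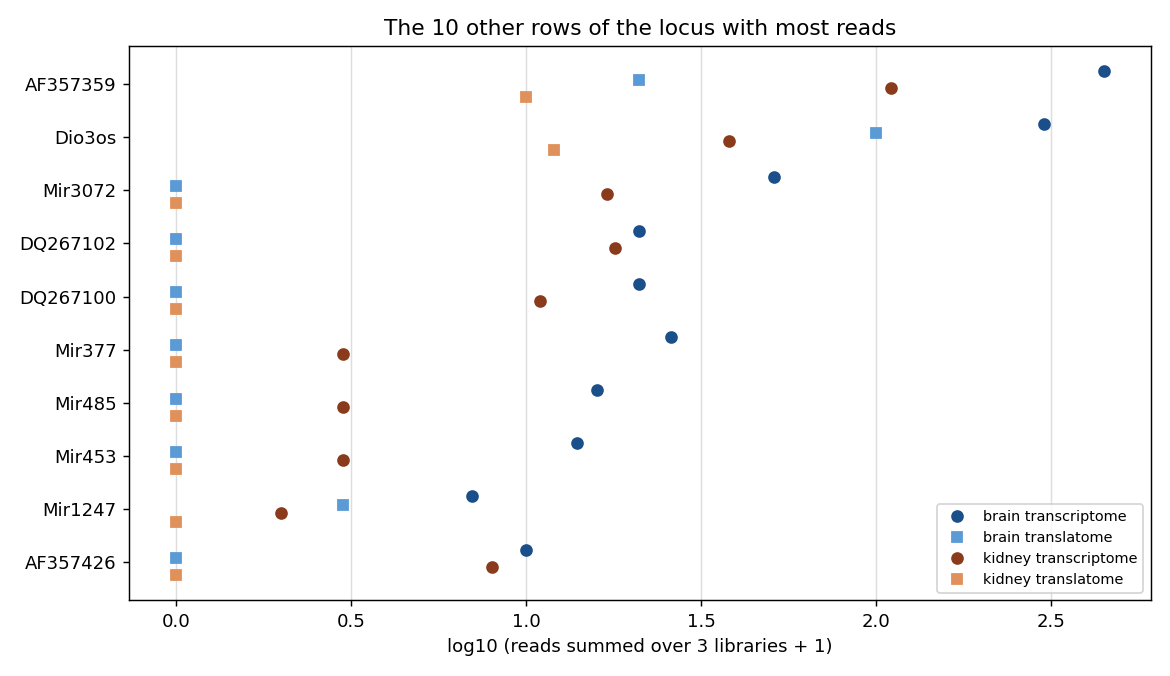
Reads of the 10 other rows of the locus with most reads, summed over the 3 libraries of each Sox2Cre group and shown as log10 of reads plus 1 (circles, transcriptome; squares, translatome). AF357359 goes from 447 to 20 reads in brain and Dio3os from 301 to 99, and 7 of the 10 rows have no read in the whole-organ translatomes.

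Inside Rtl1 lie 7 microRNA rows of the files. All 7 were listed at 0 reads in the 21 libraries. For 5 of them, which lie on the strand opposite to Rtl1, the mature sequences (RefSeq, GRCm38.p6) are printed with the seed in capitals to show what the antisense transcript carries.
miR-431-5p, chr12:109590459-109590479, plus strand: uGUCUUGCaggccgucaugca
miR-431-3p, chr12:109590502-109590523, plus strand: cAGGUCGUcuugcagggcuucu
miR-433-5p, chr12:109591729-109591750, plus strand: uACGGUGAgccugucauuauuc
miR-433-3p, chr12:109591781-109591802, plus strand: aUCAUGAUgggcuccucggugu
miR-127-5p, chr12:109592854-109592875, plus strand: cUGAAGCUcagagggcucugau
miR-127-3p, chr12:109592888-109592909, plus strand: uCGGAUCCgucugagcuuggcu
miR-434-5p, chr12:109594528-109594549, plus strand: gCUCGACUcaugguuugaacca
miR-434-3p, chr12:109594565-109594586, plus strand: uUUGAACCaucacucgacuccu
miR-136-5p, chr12:109595331-109595352, plus strand: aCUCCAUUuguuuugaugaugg
miR-136-3p, chr12:109595366-109595387, plus strand: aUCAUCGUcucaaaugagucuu
Rtl1 itself had 3 to 154 reads per library, and the length behind its RPKM was 3541 to 3547 bases, against 6358 bases of the Rtl1 transcript in GENCODE. Whether stretches that overlap another row were left out of the counting is not given in the sources used here, so a 0 in a row inside Rtl1 is not a measure of that transcript.

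Brain and kidney were compared within each RNA fraction. In total RNA the locus was higher in brain at 5 of the 6 members, beside 27.2% of all 19841 rows called higher and 26.3% called lower. Dio3 had 2.41, 2.71 and 2.66 RPKM in brain and 0.210, 0.304 and 0.189 RPKM in kidney, a log2 fold change of 3.64 (SE 0.19, adjusted p = 1.4e-08), or 12.4-fold. For Meg3 the transcriptome libraries held 1535, 1512 and 1678 RPM in brain and 241, 175 and 182 in kidney, a log2 fold change of 3.16 (SE 0.13, adjusted p = 2.5e-09). With composition-adjusted library sizes this was 8.94-fold in reads. The mean RPKM values were 267 ± 10 and 52.2 ± 9.7 (SD, n = 3), on the lengths described above and without that adjustment. Rian (log2 fold change 1.70, SE 0.16), Mirg (1.46, SE 0.15) and Rtl1 (1.42, SE 0.21) were called higher as well, with adjusted p values of 3.3e-06, 4.7e-06 and 1.2e-04. In each of these 5 genes the brain libraries stood above the kidney libraries. Dlk1 was the exception, at 19.3 to 27.2 RPKM in brain and 27.7 to 42.0 RPKM in kidney, with a log2 fold change of -0.17 (SE 0.16, adjusted p = 0.38). With the sequencing lane as a covariate 2 of the 6 members were called, Dio3 and Meg3, while Rian (adjusted p = 9.1e-03), Mirg (0.23) and Rtl1 (0.015) were not.

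In the translatomes, 1 of the 6 members was called different between the organs, beside 27.2% of all 19241 rows called higher in brain and 26.2% called lower. Dio3 had 3.40, 3.08 and 3.86 RPKM in the brain translatome and 0.394, 0.317 and 0.469 RPKM in the kidney translatome, a log2 fold change of 3.33 (SE 0.20, adjusted p = 2.7e-09). The noncoding members, which had differed by up to 8.94-fold in total RNA, stood close together. Meg3 had 16.9, 17.3 and 18.4 RPM in brain and 18.0, 15.1 and 17.5 in kidney, overlapping groups with a log2 fold change of 0.25 (SE 0.10, adjusted p = 0.043). On RPKM the sign of Meg3 was the opposite (-0.53 with limma on log2(RPKM + 0.1), adjusted p = 3.1e-03), and neither was called. Rian (log2 fold change -0.15, SE 0.17) and Mirg (0.32, SE 0.38) overlapped between the organs, both with an adjusted p of 0.46. Dlk1 had 23.3 to 29.8 RPKM in brain and 33.1 to 57.2 RPKM in kidney, without overlap. Its log2 fold change was -0.29 (SE 0.17, adjusted p = 0.14) and that of Rtl1 was 1.08 (SE 0.43, adjusted p = 0.038). Neither was called.

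The EC translatomes were compared with the translatome of the whole organ to ask which transcripts stand out in RNA purified from endothelial ribosomes. The EC libraries came from other embryos with another Cre driver, and their dams received tamoxifen. Effects of embryo, driver and tamoxifen cannot be told apart from those of the cell type. In brain EC, Dlk1 and Dio3 were called lower and Meg3 higher, beside 21.4% and 24.8% of all 19103 rows. Dlk1 had 5.47, 5.17 and 5.52 RPKM in brain EC against 23.3, 29.8 and 28.7 RPKM in the brain translatome, a log2 fold change of -2.05 (SE 0.09, adjusted p = 3.7e-10). Dio3 had 0.725, 0.683 and 0.578 RPKM against 3.40, 3.08 and 3.86 RPKM, a log2 fold change of -2.09 (SE 0.16, adjusted p = 6.7e-08). The EC libraries lay below all whole-brain libraries in both genes. Meg3 had 35.6, 39.2 and 26.5 RPM in brain EC and 16.9, 17.3 and 18.4 in the brain translatome, without overlap and with a log2 fold change of 1.24 (SE 0.12, adjusted p = 1.1e-06). In RPKM the same libraries had 4.42, 4.59 and 3.28 against 2.44, 2.89 and 2.74, and limma on log2(RPKM + 0.1) gave 0.58 (adjusted p = 8.8e-03). The change of 1.24 rests on composition-adjusted library sizes, which the RPM and RPKM values do not use. The values of 1.24 and 0.58 thus differ in scaling as well as in length. The brain transcriptome held 1512 to 1678 RPM of Meg3, and the part of carried-over RNA was not tested. Rian (log2 fold change 0.57, adjusted p = 0.067), Mirg (-0.08, adjusted p = 0.85) and Rtl1 (-0.03, adjusted p = 0.94) overlapped between the groups.

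Markers of several cell types moved with Dlk1 and Dio3 in brain EC. Of the 8 neural markers 6 were called lower and 1 higher, all 6 dorsal telencephalic markers were lower (summed level 92.2 to 124 against 596 to 611 RPKM), as were all 6 ventral ones (51.5 to 54.0 against 209 to 227 RPKM), and of the 6 diencephalic and hypothalamic markers 5 were lower (45.3 to 53.3 against 177 to 204 RPKM). Of the 6 mural cell markers 5 were lower and 1 higher (22.2 to 26.9 against 42.3 to 57.8 RPKM). Their part in the change of the members was not tested. Over all rows 53.7% of the calls in brain EC were higher, and 36.1% with library totals in place of composition-adjusted sizes.

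In kidney EC, Dlk1 was the 1 member called, lower, beside 15% of all 18940 rows called lower and 16.7% called higher. It had 8.94, 7.68 and 16.0 RPKM in kidney EC and 57.2, 33.1 and 34.7 RPKM in the kidney translatome, a log2 fold change of -1.59 (SE 0.27, adjusted p = 4.5e-04). The groups did not overlap, but the call ended without kidney translatome replicate 1 or 3 or kidney EC replicate 1 (adjusted p = 1.3e-03, 2.4e-03 and 2.3e-03). Dio3 had 5, 7 and 2 reads in kidney EC and 18, 14 and 19 in the kidney translatome, and its log2 fold change of -2.22 (SE 0.50, adjusted p = 3.0e-03) missed the threshold. Rian (0.40, adjusted p = 8.0e-03), Mirg (0.13, adjusted p = 0.82), Meg3 (-0.18, adjusted p = 0.31) and Rtl1 (1.00, adjusted p = 0.14) were not called. All 8 kidney epithelial and progenitor markers fell as well, from 418 to 444 to between 69.6 and 90.7 RPKM in sum. Of the 4 kidney stroma markers 3 were lower (134 to 157 against 262 to 295 RPKM), and of the 6 mural markers 4 were lower and 2 higher (113 to 121 against 138 to 153 RPKM). All 5 microglia and macrophage markers were lower (3.20 to 3.71 against 11.2 to 14.6 RPKM). The part of these cells in the fall of Dlk1 was not tested. Over all rows 52.7% of the calls in kidney EC were higher, and 21.7% with library totals.

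The Emx1 translatome asks the same question of the dorsal telencephalic lineage. It shares the 3 brain translatome libraries with the brain EC comparison, so both comparisons move with those libraries. Embryos and Cre driver differ here too, and their effects cannot be told apart from those of the lineage. Dlk1 was as low as in brain EC, with 4.88, 4.81 and 5.06 RPKM, and its log2 fold change against the brain translatome was -2.42 (SE 0.08, adjusted p = 6.7e-12). Dio3, in contrast to brain EC, had 3.47, 2.68 and 2.72 RPKM, overlapping the brain translatome, with a log2 fold change of -0.15 (SE 0.13, adjusted p = 0.37). Rtl1 had 19, 7 and 9 reads against 23, 26 and 21, with a log2 fold change of -1.57 (SE 0.31, adjusted p = 8.8e-04). That call of Rtl1 ended under DESeq2 (adjusted p = 2.9e-03) and when any 1 of the 6 libraries was left out (adjusted p between 1.2e-03 and 5.1e-03). With Rtl1, 2 of the 6 members were called lower and 0 higher, beside 12.8% and 9.2% of all 19006 rows. Meg3 (-0.17, adjusted p = 0.17), Rian (0.09, adjusted p = 0.69) and Mirg (-0.97, adjusted p = 0.029) were not called. All 6 ventral telencephalic markers (50.6 to 54.5 RPKM in sum), 5 of the 6 diencephalic and hypothalamic markers (53.8 to 55.5 RPKM) and all 6 mural markers (5.95 to 6.51 against 42.3 to 57.8 RPKM), all 10 endothelial markers (12.7 to 15.2 against 146 to 166 RPKM) were lower with Dlk1. All 5 microglia and macrophage markers (0.972 to 1.52 against 14.5 to 16.2 RPKM) and 3 of the 4 markers of kidney stroma (71.8 to 73.2 against 73.3 to 78.8 RPKM) were lower as well. Their part in the change of Dlk1 was not tested. Over all rows 41.7% of the calls in Emx1 were higher, and 29.9% with library totals.

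**Figure D5:**
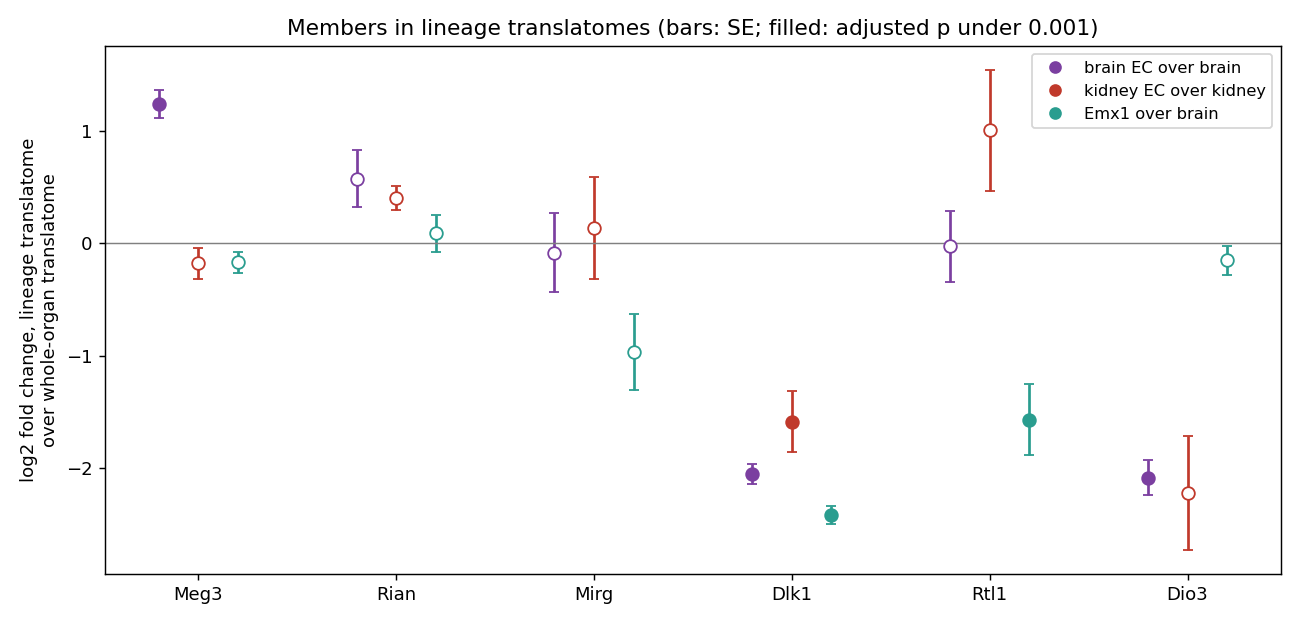
Log2 fold change of the members in the brain EC, kidney EC and Emx1 translatomes against the translatome of the whole organ; bars are the SE and filled points are called at an adjusted p under 0.001. Dlk1 lies between -2.42 and -1.59 in all 3, Dio3 near -2 in both EC translatomes and at -0.15 in Emx1, and Meg3 at 1.24 in brain EC.

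Between the 2 EC translatomes, Dio3 and Meg3 were called higher in brain, beside 20.1% of all 19238 rows called higher and 16.9% called lower. Dio3 had 84, 68 and 62 reads in brain EC and 5, 7 and 2 in kidney EC, with a log2 fold change of 3.39 (SE 0.38, adjusted p = 1.9e-05), close to the 3.33 of the whole-organ translatomes. Meg3 had 35.6, 39.2 and 26.5 RPM in brain EC and 9.41, 11.7 and 13.6 in kidney EC, a log2 fold change of 1.58 (SE 0.16, adjusted p = 1.0e-05), whereas on RPKM it was not called (0.53 with limma on log2(RPKM + 0.1), adjusted p = 0.024). Dlk1 had 5.17 to 5.52 RPKM in brain EC and 7.68 to 16.0 RPKM in kidney EC, with a log2 fold change of -0.85 (SE 0.22, adjusted p = 7.3e-03). Rian (-0.06), Mirg (0.01) and Rtl1 (-0.05) overlapped between both, with adjusted p values of 0.83 to 0.98. All 8 neural markers were higher in brain EC, and their part was not tested.

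Over the 7 groups, the order of mean RPKM separated the members. Meg3, Rian, Mirg and Rtl1 were highest in the brain transcriptome and second in the kidney transcriptome. Of the translatome groups, Rian had 6.44 to 8.49 RPKM and Mirg 0.150 to 0.313 RPKM, and each neighbouring pair in these 2 orders overlapped in its libraries. Dlk1 was highest in the kidney translatome (41.7 ± 13.5 RPKM, SD, n = 3), and each of the next 3 groups overlapped the one before it: the kidney transcriptome (33.0 ± 7.8), the brain translatome (27.3 ± 3.5) and the brain transcriptome (24.3 ± 4.4). Dlk1 in kidney EC, brain EC and Emx1 followed, each apart from the next. Dio3 was highest in the brain translatome (3.45 ± 0.39 RPKM), overlapping Emx1 (2.96 ± 0.44), which overlapped the brain transcriptome (2.59 ± 0.16), and its 3 kidney groups were the lowest, each apart from the next.

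The genes most like each member over the 7 groups were found by the root mean square difference of centred log2(mean RPKM + 0.1). For Meg3 these were A930013F10Rik (0.46), Masp2 (0.51) and Mir3072 (0.54), and for Mirg they were Masp2 (0.24), Mir3072 (0.36) and Snord98 (0.38). Rian was nearest to Gm14827 (0.11), Adam8 (0.17) and Mir485 (0.29). Gm14827, Mir485, Mir3072 and Snord98 lay below the pseudocount of 0.1 in all 5 translatome groups, where the measure says little. Masp2 (0.054 to 0.144 RPKM) and A930013F10Rik (0.049 to 0.199 RPKM) lay near the pseudocount in these groups, so the same limit holds for them. It also holds for the members Rtl1 (0.060 to 0.193 RPKM) and Mirg (0.150 to 0.313 RPKM) and for their likeness to other genes. Dlk1 was nearest to Rgs5 (0.34), a marker of pericytes, then Foxa1 (0.40) and Nup62cl (0.42). Rgs5 had a mean of 26.3 RPKM in the brain translatome, 5.79 in brain EC and 2.79 in Emx1, and Dlk1 had 27.3, 5.39 and 4.92 RPKM. Rtl1 was nearest to Dgkq (0.29), Specc1 (0.29) and Col20a1 (0.31), and Dio3 to Opcml (0.17), A330102I10Rik (0.19) and Tmem132c (0.19). Among the members themselves, Meg3 and Mirg were nearest to each other (0.56), and so were Rian and Rtl1 (0.56), whereas Dlk1 and Dio3 were far from every other member (at least 1.06 and 1.68).

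The partners of the coding members were compared next. Around Dio3, 15 genes of thyroid hormone transport, activation and response were tested. In the brain translatome against the transcriptome 5 of them were called higher and 1 lower, beside 18.6% and 18.5% of all rows. Their median log2 fold change was 0.30. In kidney 1 was higher and 0 lower, beside 14.9% and 15.8%. With the tissue sample as a block, 6 were higher and 2 lower in kidney, beside 24% and 25.1%. Thra, a thyroid hormone receptor, had 226 ± 9.9 RPKM in the brain transcriptome and 402 ± 9.6 in the translatome (SD, n = 3; log2 fold change 0.86, SE 0.06, adjusted p = 1.6e-08). Thra also fell with Dio3 in brain EC (100 ± 11 RPKM, log2 fold change -1.71) and, like Dio3, not in Emx1 (0.04, adjusted p = 0.50). Ttr, a carrier of thyroid hormone made by the choroid plexus, was higher in brain than in kidney by 11.73 on the log2 scale in total RNA, and fell by 1.64 in brain EC. Ncor1, a corepressor, went the other way in brain EC, from 56.1 ± 7.6 to 105 ± 5.7 RPKM (log2 fold change 1.28, SE 0.10, adjusted p = 1.0e-07). Rxrb, a partner of the receptors, was called higher in the brain translatome than in the transcriptome (0.39) and not in brain EC (-0.06).

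Around Dlk1, 15 Notch receptors, ligands and targets were tested. In brain EC 8 were called higher and 5 lower, beside 24.8% and 21.4% of all rows, with a median log2 fold change of 0.69 against -0.01 over all rows, while Dlk1 fell. Notch1, a receptor, rose in brain EC from 12.3 ± 0.72 to 29.4 ± 1.7 RPKM (SD, n = 3; log2 fold change 1.55, SE 0.07, adjusted p = 5.7e-10), and the targets Hey1 and Hes1 rose by 1.43 and 1.52. In the brain translatome against the transcriptome 6 of the 15 were lower and 1 higher, beside 18.5% and 18.6% of all rows. Notch1 stood at -1.33 there, whereas Notch3 (0.09) was not called. In Emx1 5 were higher and 6 lower, beside 9.2% and 12.8% of all rows. Notch3 was lower there (-0.44) and Hey1 and Hes1 were higher (0.57 and 0.71).

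Of 9 genes linked to the setting or maintenance of imprints, 5 were called lower in the brain translatome, beside 18.5% of all rows. In the kidney translatome 8 were called lower, beside 15.8%. Both comparisons are with the transcriptome, and 0 were called higher in either organ. Zfp57, a zinc finger protein that binds methylated imprinting control regions, fell from 137 ± 8.9 to 38.9 ± 1.2 RPKM in brain (SD, n = 3; log2 fold change -2.23, SE 0.06, adjusted p = 3.3e-12). Trim28 (-0.47 in brain and -0.66 in kidney) and Ctcf (-0.59 and -0.60) fell in both organs, and Dnmt1 fell in kidney (-0.56) and was not called in brain (-0.24).

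Other imprinted coding genes moved in both directions in brain EC. Of 18, 11 were called higher there and 4 lower, beside 24.8% and 21.4% of all rows, with a median log2 fold change of 0.86. Mest and Igf2, both expressed from the paternal chromosome as Dlk1 is, rose by 2.87 and 2.12 on the log2 scale, from 180 ± 5.5 to 1106 ± 58 RPKM and from 77.0 ± 12 to 277 ± 12 RPKM (SD, n = 3). The growth inhibitor Cdkn1c rose by 1.31, and Nnat, a paternally expressed gene of neurons, fell by 2.98. In Emx1 11 of the 18 were lower, as Dlk1 was, and 1 was higher, beside 12.8% and 9.2% of all rows. Igf2 stood at -2.44 and Mest at -0.79. Between translatome and transcriptome 6 were higher and 5 lower in brain, beside 18.6% and 18.5% of all rows, with a median of 0.09. In kidney 3 were higher and 3 lower, beside 14.9% and 15.8%, with a median of -0.06. With the tissue sample as a block, 6 were higher and 7 lower in kidney, beside 24% and 25.1%.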

How the data were processed

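Polyadenylated RNA from E14.5 mouse brain and kidney was sequenced in 21 libraries, as total RNA or after affinity purification of mCherry-tagged ribosomes, with a kit that does not keep the strand. The authors aligned reads to GRCm38 (mm10) with RUM 2.04, and deposited raw read counts and RPKM values per RefSeq row, the latter scaled to the reads on mRNAs. Samples were grouped by their GEO labels. Read counts were tested with edgeR 4.0.16 (quasi-likelihood, TMM factors, rows with at least 1 count in the libraries compared, Benjamini-Hochberg over all rows), 6 libraries per comparison and 12 for the interaction, and changes were called at an adjusted p under 0.001, the threshold of the study. RPKM served for levels, ratios and limma 3.58.1, without the TMM factors. The scripts were tested on simulated counts. Depth was 21760652 to 79231692 reads per library, so rows with few reads are imprecise. The members and gene lists were chosen with earlier results of these data known. Named were all members, the 10 other locus rows with most reads and the 3 nearest coding genes on each side. The 4 genes of each list with the highest mean RPKM were named too. So were the 3 rows most like each member among those reaching a mean of 1 RPKM in a group. Transcriptome and translatome libraries with the same number came from the same tissue samples, and their deviations from the group means correlated (0.447 to 0.541). The 2 EC groups also correlated by number (0.124 to 0.174), and the other comparisons share only a number. P-values measure the spread between libraries, each from the tissue of 1 or more embryos. Alternatives were DESeq2 1.42.0, other scalings, a filter on low counts, 1 fit of all libraries, the sequencing lane or the replicate number as a block, limma on RPKM, and leaving out each library. The lane was fitted in the 12 Sox2Cre libraries only. The comparisons with the EC and Emx1 translatomes were therefore not checked for the lane.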

Additional observations from a re-analysis of the deposited data

Results flagged for a closer look

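The change from transcriptome to translatome differed between brain and kidney for 2 members in the interaction test. For Meg3 the log2 change in brain minus that in kidney was -2.92 (SE 0.16, adjusted p = 3.9e-08 in edgeR), and every translatome library lay below every transcriptome library in both organs. For Rian the difference was -1.84 (SE 0.28, adjusted p = 2.3e-04 in edgeR). Each value kept its side of the threshold when any 1 of the 12 libraries was left out. The difference of Rian missed it with the sequencing lane as a term (adjusted p = 5.7e-03). In the same libraries the log2 fold change of brain over kidney was 3.16 for Meg3 and 1.70 for Rian in total RNA. In the translatomes it was 0.25 and -0.15. The interaction is therefore not independent of the organ difference in total RNA.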

How the results depend on the processing

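Of the log2 fold changes of single members under an alternative, 747 kept direction and side of the threshold, 31 lost the call, 11 gained it and 33 changed sign, none of the last being called. Where the cause is not given, the cause was not tested. Members called numbered 5 with the replicate block in kidney translatome against transcriptome (3 without it), 2 with the sequencing lane as a term in the transcriptomes of brain and kidney (5), and 1 with the lane in the interaction (2). In kidney EC they numbered 2 in 1 fit of all libraries, 2 with library totals and 0 with the filter (1), and in Emx1 1 in 1 fit, with DESeq2, with the filter and with the replicate block (2). Of the other locus rows in kidney 0 were called with the lane (1). The fall of the log2 noncoding to coding ratio between transcriptome and translatome was 6.81 in brain and 4.03 in kidney for Meg3 over Dlk1 alone (5.37 and 2.98), and the brain minus kidney difference was 2.94 on reads and 2.80 for Meg3 over Dlk1 (2.40).

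Leaving out 1 library gave 4 to 4 members called in brain and 3 to 3 in kidney translatome against transcriptome, 5 to 5 between the transcriptomes, 1 to 1 between the translatomes, 3 to 3 in brain EC, 0 to 1 in kidney EC, 1 to 1 in Emx1, 2 to 3 between the EC groups and 2 to 2 in the interaction, and 2 to 3 and 0 to 1 other locus rows in brain and kidney. Without kidney EC replicate 2 Dlk1 was called between the EC groups (adjusted p = 7.1e-04 in edgeR), and without kidney translatome replicate 1 Rian was called in kidney EC (9.7e-04). The ratio differences ranged from 5.19 to 5.61, 2.82 to 3.08 and 2.22 to 2.51. Log2 fold changes crossed 0 without 1 library for Dlk1 between the transcriptomes (-0.28 to 0.06, the latter without kidney transcriptome replicate 1), Rian (-0.42 to 0.01) and Dlk1 (-0.43 to 0.01) between the translatomes, Mirg (-0.27 to 0.14) and Rtl1 (-0.33 to 0.16) in brain EC, Mirg in kidney EC (-0.21 to 0.30), Rian in Emx1 (-0.06 to 0.37), Rian (-0.47 to 0.16), Mirg (-0.17 to 0.36) and Rtl1 (-0.34 to 0.49) between the EC groups, and Dlk1 in the interaction (-0.36 to 0.17). With limma on RPKM the sign changed for Meg3 between the translatomes (-0.42 and -0.53), Mirg in kidney EC (-0.05 and -0.19), Mirg between the EC groups (-0.0024 and -0.0042) and Dio3 in the interaction (0.13). With the lane Dlk1 turned between the translatomes (0.04) and in the interaction (0.45), in 1 fit Rian (0.05) and Rtl1 (0.07) between the EC groups, and with library totals Mirg in kidney EC (-0.23) and between the EC groups (-0.02).

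Over all rows, the calls numbered 9496 with the block in kidney translatome against transcriptome (5929), 6673 with the lane between the transcriptomes (10616), and in the interaction 407 with the lane, 2669 with DESeq2, 3445 with the block and 850 without kidney transcriptome replicate 2 (1301). Library totals moved the median of all rows by -0.30 in brain EC and -0.37 in kidney EC. With the replicate block Rtl1 lost its call in Emx1 (adjusted p = 3.7e-03 in edgeR), where the libraries share only a number, and the block changed no other member's call than those of Dlk1, Dio3 and Rtl1 given with their results. Rtl1, Mirg and kidney Dio3 rest on few reads, which limits what can be seen of them.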
